A study of Homo sapiens with 12 samples.

Results

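The data are the 2 lists of ZEB1 binding peaks made by chromatin immunoprecipitation and sequencing in HEK293T cells, 1 list per replicate, out of 12 libraries in the series. HEK293T is a transformed human embryonic kidney line that is widely used because it is easily transfected. The cells were wild type, with no treatment named, were fixed with formaldehyde, and were precipitated with a Proteintech antibody against ZEB1. The other libraries, used here as background only, are 2 each for INTS13, INTS11, HDGF and ZNF609 in the same cells, and 2 of input chromatin that were not used. All groups share the line and the wild-type genotype. Whether the 2 replicates were separate cultures is not stated, and their spread may be technical. On chromosomes 1 to 22 and X, replicate 1 had 52336 peaks and replicate 2 had 45291. Peaks of both lists that overlapped by 1 bp or more were merged, and a merged stretch holding a peak of each replicate was called a reproducible region. There were 14984 of them.

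ZEB1 is a DNA-binding repressor with a zinc finger cluster near each end of the protein and a homeodomain-like part between them. The zinc fingers recognise the E-box CACCTG, which on the opposite strand is read as CAGGTG. It is best known for silencing epithelial genes such as CDH1, which encodes E-cadherin, through corepressors of the CtBP family during epithelial-mesenchymal transition. The microRNAs of the miR-200 family repress ZEB1, and ZEB1 in turn represses their genes.

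A few sequences show what the peaks covered at genes of these classes. The first is start sites with CACCTG under a ZEB1 peak. Capitals mark CACCTG or CAGGTG, and each sequence lies upstream of the start, 5′ to 3′ on the strand of the gene, from RefSeq for GRCh38.p14. AP1M2, ELF3 and RAB25 are epithelial genes and TM7SF2 is a cholesterol synthesis gene. STX4 and GPRIN2 were added after their values were seen, as start sites covered in both replicates.
AP1M2, chr19:10587313-10587409, minus strand: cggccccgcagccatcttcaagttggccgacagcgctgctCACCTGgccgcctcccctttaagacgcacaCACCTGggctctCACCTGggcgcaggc
ELF3, chr1:202010427-202010512, plus strand: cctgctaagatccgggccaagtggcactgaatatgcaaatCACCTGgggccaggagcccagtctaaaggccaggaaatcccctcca
RAB25, chr1:156061079-156061159, plus strand: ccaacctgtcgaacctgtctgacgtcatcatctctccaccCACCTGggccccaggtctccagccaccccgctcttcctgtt
TM7SF2, chr11:65111628-65111713, plus strand: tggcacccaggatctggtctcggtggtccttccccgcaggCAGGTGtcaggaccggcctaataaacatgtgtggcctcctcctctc
STX4, chr16:31032845-31032897, plus strand: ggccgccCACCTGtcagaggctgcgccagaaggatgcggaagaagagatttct
GPRIN2, chr10:46557770-46557846, minus strand: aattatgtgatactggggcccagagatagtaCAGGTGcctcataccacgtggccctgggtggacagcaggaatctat

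The second group is a pair of microRNAs whose genes lie at 1 ZEB1 peak of replicate 1, which begins after MIR200B and ends inside MIR200A. Capitals mark the seed, bases 2 to 8.
hsa-miR-200b-3p, chr1:1167160-1167181, plus strand: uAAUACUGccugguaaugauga
hsa-miR-200a-3p, chr1:1167916-1167937, plus strand: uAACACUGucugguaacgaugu

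The 2 lists were alike in their overall features. The mean number of peaks was 48814 ± 4982 (SD, n = 2), the covered length was 39.3 ± 4.35 Mb and the median width was 526.5 ± 3.54 bp. Each peak carries the authors' own fold, the ratio of its summit to the caller's background, and a −log10 q, where 10 times its value is the deposited score. These values were used only to rank and describe peaks within a list. In both lists each fold was a whole multiple of 1 step, within 0.000182 of a step. A step can be read as 1 fragment. The lowest summits were at 19 steps in replicate 1 and 17 in replicate 2, and a fold of 1 was 9.13 and 7.85 steps. A constant added by the caller to summit and background would be part of these counts, so the fragments themselves may be fewer. Median folds were 2.52 and 2.67, or 23 and 21 steps, so the median peak of each list stood 4 steps above the lowest accepted height. The highest folds were 12.7 and 10.4. A single step per list means that 1 background value served the whole list, so the folds hold no local correction. The number of reads behind each list is unknown, which leaves no counting interval to give.

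Fewer than 40% of ZEB1 peaks were found again in the other replicate, and the share found again rose with the strength of the peak. Reproducible regions held 17095 replicate 1 peaks (32.7%) and 17653 replicate 2 peaks (39.0%). Among peaks with a −log10 q under 2, 18.2% of 19056 in replicate 1 and 23.8% of 19108 in replicate 2 overlapped a peak of the other list. The shares were 48.8% and 55.8% between 3 and 5, and 74.3% and 87.4% between 5 and 10. At 10 or more, 343 of 344 and 327 of 328 peaks were shared. Those strongest peaks were also wide, with median widths of 8461 and 7228 bp beside 435 and 438 bp in the weakest class, and a wide peak meets another by placement more easily.

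**Figure D1:**
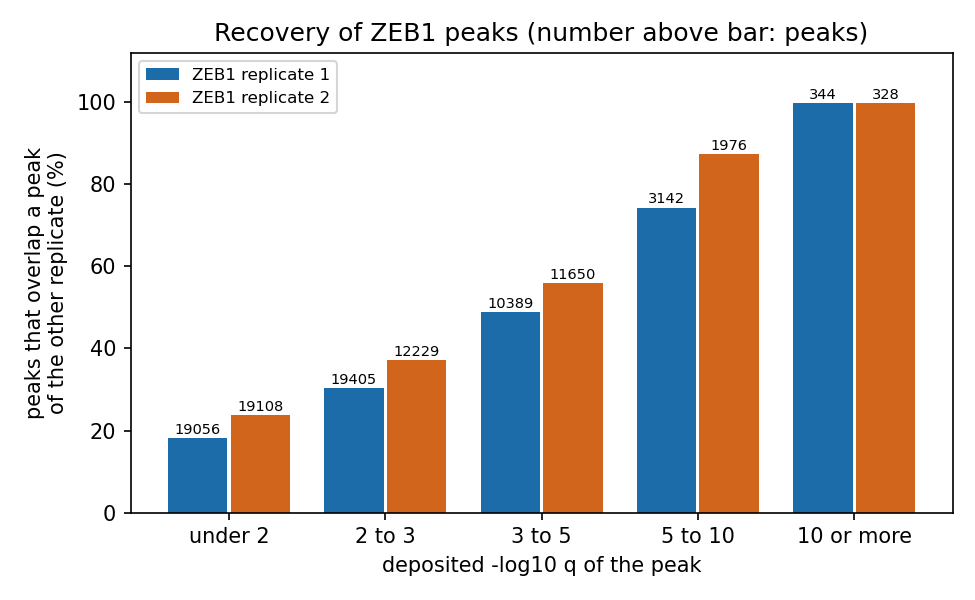
Share of ZEB1 peaks (%) that overlap a peak of the other replicate, by class of the deposited −log10 q, with the number of peaks above each bar. The share rises in every step, from 18.2% and 23.8% in the weakest class to 99.7% in both lists in the strongest.

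Overlapping peaks did not usually mark the same point. The strongest summits of the 2 replicates lay a median of 355 bp apart within a region (quartiles 156 and 679 bp), and they were within 100 bp of each other in 2467 regions (16.5%) and within 250 bp in 5767 (38.5%). Of 19764 overlapping pairs of peaks, 29.0% overlapped by at least 50% of both. The folds of the 2 replicates were weakly related across the 14984 regions, with a Spearman rho of 0.31. In the 14746 regions under 10 kb the rho was 0.28. Regions of 1 chromosome block are not independent, so no p is given.

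Reproducible regions were wider than single peaks by construction, since they span both. Their median width was 1226 bp (quartiles 853 and 1913), from 327 bp to 217 kb, and 12201 (81.4%) were made of 1 peak from each list. They covered 29.1 Mb. A small number of very broad regions carried much of that length: 238 regions of 10 kb or more held 20.1% of it. Single lists had 184 and 149 peaks of 10 kb or more, and the widest were 213 and 114 kb.

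**Figure D2:**
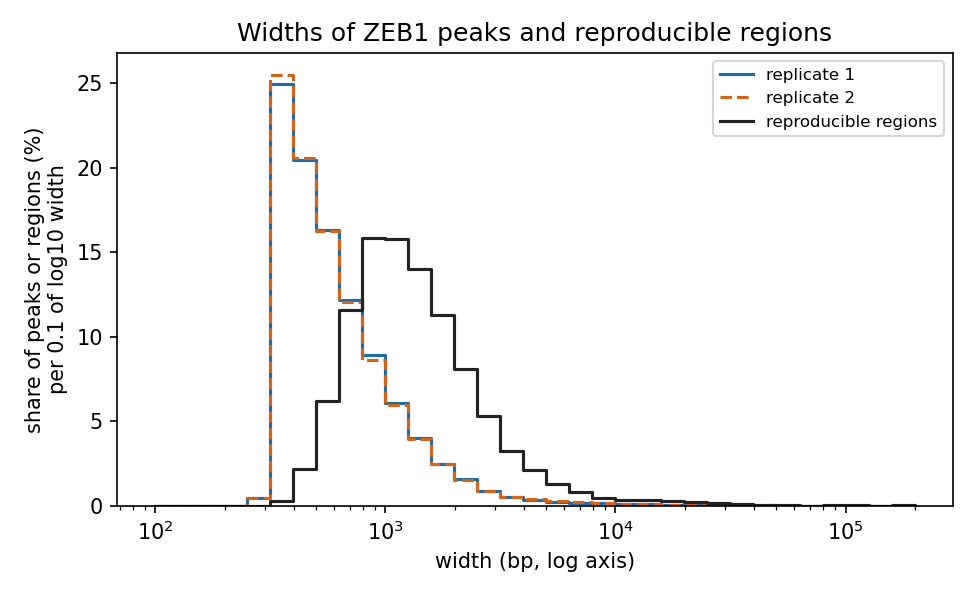
Widths of ZEB1 peaks in replicate 1 and replicate 2 and of reproducible regions (bp, log axis), as the share (%) of each set per 0.1 of log10 width. The 2 lists lie almost on each other with medians of 529 and 524 bp, and the regions are shifted to a median of 1226 bp with a thin tail beyond 10 kb.

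The broadest regions lay on 2 chromosomes. Of the 10 widest, 6 lay on chromosome 13 and 4 on chromosome 9. The widest, chr13:61743797-61961236, had folds of 8.54 in replicate 1 and 7.64 in replicate 2 and lay 328 kb from PCDH20, its nearest protein-coding gene. The strongest region in both lists, chr13:62080905-62191225, was 110 kb wide with folds of 12.7 and 10.4, and its 2 highest summits were 720 bp apart. It was 665 kb from PCDH20. PCDH20 and PCDH9 encode protocadherins, cell adhesion proteins of the nervous system, and 4 of the 10 widest regions lay in PCDH9 itself, with folds from 4.60 to 5.48. On chromosome 9, 15 regions between 79168240 and 80168489 covered 780 kb around TLE4, a Groucho-type corepressor gene, with folds of 3.29 to 6.02 in replicate 1 and 3.31 to 6.37 in replicate 2. One of these, 195 kb wide, covered the whole gene.

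ZEB1 peaks were spread very unevenly over the chromosomes. Chromosome 1 held 5656 regions (37.7%) on 8.22% of the length, and chromosome 13 held 5339 (35.6%) on 3.77%. Next came chromosome 18 with 1034, chromosome X with 677 and chromosome 7 with 646. Chromosomes 8, 14 and 20 had 3, 4 and 4 regions. Recovery differed in the same way. On chromosome 13, 68.6% of replicate 1 peaks and 69.1% of replicate 2 peaks were shared, while on chromosome 2 the shares were 3.26% and 3.47%. Peaks numbered 85.0 and 88.6 per Mb on chromosome 13, and 2.03 and 1.90 per Mb on chromosome 2. Overlap by placement alone rises with such density, and its part in these shares was not tested. The other 8 lists had between 3.65% and 33.8% of their peaks on chromosome 13 and between 14.1% and 34.1% on chromosome 1. The ZEB1 lists, with 18.6% and 22.4% on chromosome 13 and 32.0% and 33.4% on chromosome 1, lay inside those ranges.

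**Figure D3:**
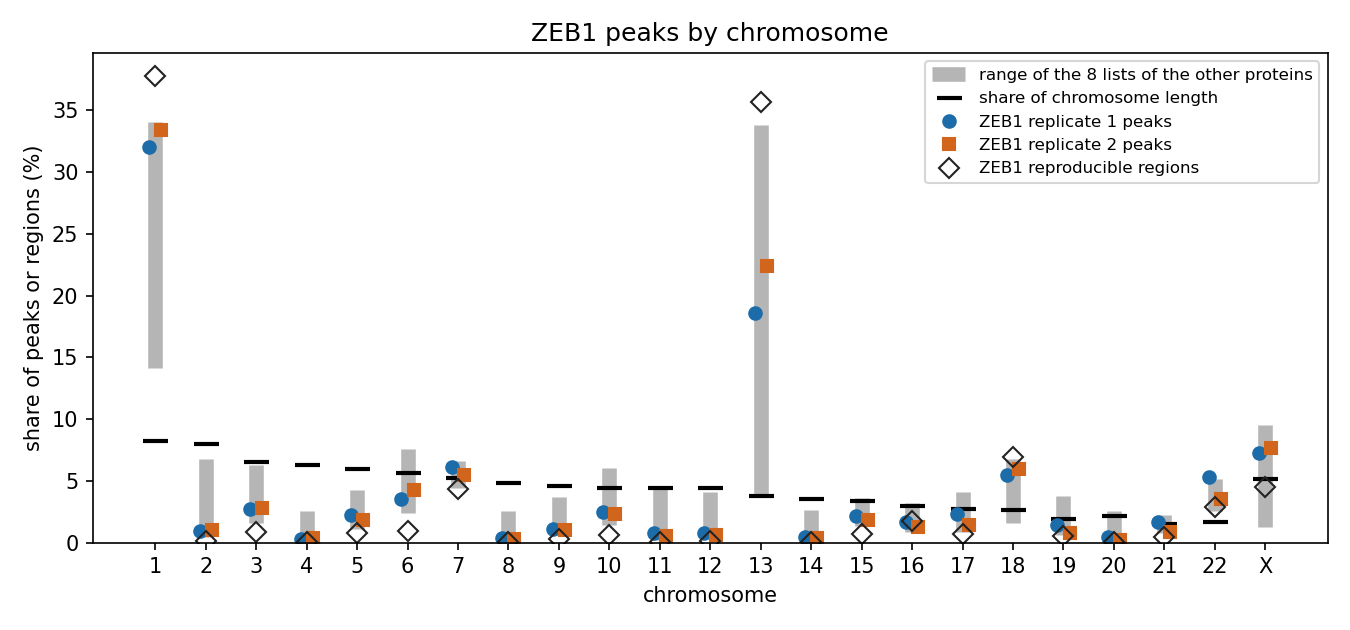
Share of ZEB1 peaks and reproducible regions by chromosome (%), with the share of chromosome length (dashes) and the range over the 8 lists of INTS13, INTS11, HDGF and ZNF609 (grey). Regions reach 37.7% on chromosome 1 and 35.6% on chromosome 13, and single-list shares there fall within the grey range.

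At the scale of 1 Mb the crowding was stronger still. Peak counts per bin were divided by the mean of their list, and bins in which the median of this ratio over the 8 lists of the other proteins exceeded 2 are called dense. ZEB1 values did not enter. Dense bins were 492 of 3038 (16.2%). They held 87.6% ± 0.208 of ZEB1 peaks (SD, n = 2) and 98.0% of reproducible regions, which left 304 regions outside. Only 518 bins held any region, and 36 bins held 50% of all regions. Of the 10 fullest bins, 9 lay on chromosome 13 between 71 and 81 Mb. The fullest, with 289 regions, starts at 77 Mb and contains MYCBP2, a ubiquitin ligase gene, and EDNRB, an endothelin receptor gene. The tenth is on chromosome 1 from 226 Mb, with 279 regions and the histone gene H3-3A and PARP1. The order of bins by peak count was similar in the 2 replicates, with a Spearman rho of 0.86 over 3038 bins, which are not independent. The input libraries were not used, so how input chromatin is spread over these bins was not measured.

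ZEB1 regions lay inside genes about as often as bases do. They overlapped gene ends in a larger share than that of bases over the genome as a whole, but overlap grows with width. A gene end is the stretch within 1 kb of either end of a protein-coding or long non-coding RNA gene, and includes 3′ ends, since the gene table gives no strand. Of the regions, 1675 (11.2%) were at a gene end, 49.0% inside a gene (beside 50.7% of all bases), 27.4% within 50 kb of one and 12.5% farther away. All peaks of replicate 1 were at gene ends in 9.99% of cases and those of replicate 2 in 7.94%, beside 6.29% to 12.1% in the 8 other lists. Counted by summits, which do not depend on width, 7.64% of replicate 1 and 5.98% of replicate 2 peaks were at gene ends. Gene ends made up 4.47% of all bases. In dense bins, where gene ends made up 7.19% of bases, the summit shares were 7.53% and 5.96%. Outside dense bins, where they made up 3.95%, the shares were 8.45% and 6.14%. So both replicates exceeded the share of bases outside dense bins, and in dense bins replicate 1 was close to it and replicate 2 below it. For the shared peaks, which form the regions, the summit shares in dense bins were 6.35% and 6.15%, both below the 7.19% of bases. Dense bins hold 98.0% of regions. Outside them the shared peaks gave 5.57% and 6.63%, above the 3.95% of bases.

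Around protein-coding start sites, for which strand is known, summits of both replicates were denser than 5 to 10 kb away. Within 500 bp of a start site replicate 1 had 838 summits, 2.20 times the density of the flanks, and replicate 2 had 462, or 1.63 times. In replicate 1 the highest class was the first 500 bp downstream, at 2.78 times the flanks. In replicate 2 that class had 1.93 times and the next 500 bp had 2.02 times. Between 500 bp upstream and the start both had fewer summits than just downstream, at 1.63 and 1.34 times. The 8 other lists ranged from 0.786 to 2.82 within 500 bp, so neither ZEB1 value stood outside them. With 2 libraries a protein, an exact permutation test of 1 protein against the other 4 cannot give a p below 0.2, and no such test was made.

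**Figure D4:**
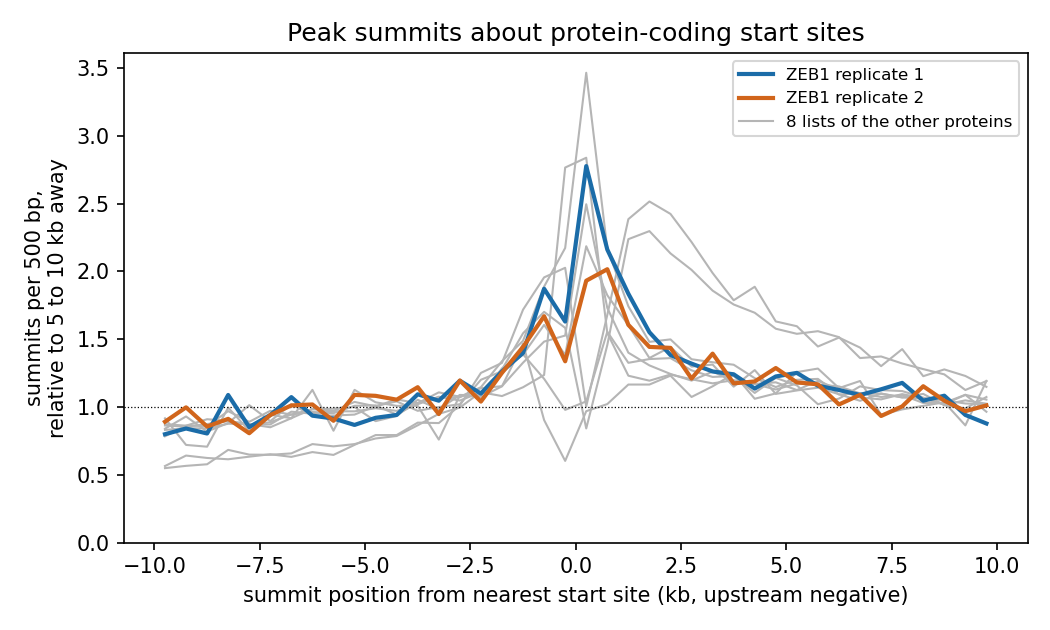
Peak summits by position from the nearest protein-coding start site (kb, upstream negative) in classes of 500 bp, relative to the mean density 5 to 10 kb away. Replicate 1 (blue) peaks at 2.78 and replicate 2 (orange) at 2.02 just downstream of the start, both among the lists of the other proteins (grey).

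CACCTG was in a larger share of start-site windows carrying a ZEB1 summit than of all windows, by an amount that was not tested. The windows run from 250 bases before to 50 after a start, and CACCTG was searched on both strands. It was present in 7197 of 34961 windows (20.6%), in 94 of 349 with a replicate 1 summit (26.9%) and in 50 of 202 with a replicate 2 summit (24.8%). Windows overlapping a reproducible region, 1.69% of all, held it in 145 of 592 cases (24.5%). Windows with summits of the other 8 lists held it in 20.1% to 30.9%, a range that includes both ZEB1 values. The related E-boxes gave no common direction: CACGTG was in 5.44% and 8.91% of windows with a replicate 1 and replicate 2 summit beside 7.27% of all, and CAGCTG in 22.9% and 18.3% beside 18.0%. A match is a run of letters and not a measured binding site. Peaks away from start sites were not searched, as no genome sequence was used here.

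Of 19974 protein-coding genes, 756 (3.78%) had a reproducible region at an end. A replicate 1 peak was at an end of 13.3% and a replicate 2 peak at an end of 8.48%. The share depended on where the gene lies: 11.6% of the 6377 genes in dense bins had a region at an end, and 0.14%, or 19, of the 13597 genes outside. Between the ends of a gene, 1335 genes (6.68%) had a region. GPC5 had 264 of them, 18.0 per 100 kb, and its neighbour GPC6 had 189. Both encode glypicans, heparan sulfate proteoglycans of the cell surface. KLF12, a Krüppel-like repressor gene, had 165 and DACH1, a developmental repressor gene, had 121. The next were MYCBP2 with 76, FHOD3 with 73, PIBF1 with 72, LMO7 with 69, DNAH14 with 66 and CDC42BPA with 63. All 10 are long genes in dense bins of chromosomes 13, 1 and 18.

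The 25 genes with the strongest regions at an end, ranked by the lower of the 2 replicates' percentiles, included 1 member of the lists below, PCDH9 of the neuronal list. TLE4 ranked first with folds of 5.70 and 6.11, but its 2 summits were 29675 bp apart within the 195-kb region. NBPF1 had folds of 6.35 and 5.73, and its summits were 17 bp apart. NBPF1 belongs to a family of near-identical copies and GPRIN2 lies among duplicated segments, so reads at both are of uncertain origin. GPRIN2 had folds of 4.49 and 4.84 with summits 410 bp apart. EPHX1, a microsomal epoxide hydrolase gene, had 4.27 and 4.46. KDELR3, a receptor gene of the endoplasmic reticulum retrieval path, had 4.49 and 4.07. GTPBP3, a mitochondrial tRNA modification gene, had 4.16 and 4.07 with summits 225 bp apart. RNF187, a ubiquitin ligase gene, had 3.72 and 4.07 with summits 135 bp apart. LIN9, a subunit of the DREAM complex, had 3.51 and 4.07 with summits 214 bp apart, and ZNF689 had 3.51 and 3.95 with summits 104 bp apart. Others among the 25 were PCDH9, NDFIP2, TCAF1, TMEM184B, LOC124900416, LOC124903566, TARS3, KLF12, COMMD6, PCSK6, GUK1, TBC1D4, CSNK1E and ACOD1. Over all 25, folds ran from 3.51 to 6.35 in replicate 1 and from 3.69 to 6.11 in replicate 2. Of the 25 genes, 7 lie on chromosome 1, 7 on chromosome 13 and 3 on chromosome 22. In 22 the gene is in a dense bin, and in 23 the region overlapped a peak of all 8 other lists. Their summits were within 250 bp of each other in 6 cases, with a median distance of 1951 bp.

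Epithelial genes had a peak at an end in a larger share of cases in replicate 1 than in replicate 2, as did all genes. Of 39 genes known as repressed by ZEB1 or as epithelial markers, 3 (7.69%) had a reproducible region at an end, beside 3.78% of all protein-coding genes. Folds given for listed genes are those of the strongest peak of each replicate at either end, which need not be the peaks that form the region. Among them were CGN (cingulin of tight junctions, folds 2.96 and 2.93) and F11R (junctional adhesion molecule A, 2.41 and 2.42). In replicate 1 alone the count was 14 genes (35.9%), beside 13.3% of all genes. In replicate 2 it was 4 genes (10.3%), beside 8.48%. All 4 genes of replicate 2, CGN, F11R and RAB25 among them, were also among the 14, and 10 genes had a peak in replicate 1 without replicate 2. Of all 19974 protein-coding genes, 2656 had a replicate 1 peak at an end and 986 (4.94%) had peaks of both replicates. Among all genes with a replicate 1 peak, too, most had no replicate 2 peak. Values were low throughout. The 14 strongest replicate 1 peaks at these genes had folds from 2.30 to 3.07 (median 2.57), with a median −log10 q of 2.41 and a highest of 4.25. With only peaks of a −log10 q of 2 or more, a choice made after seeing the data, the counts were 10 in replicate 1 and 2 in replicate 2, beside 8.92% and 5.13% of all genes. In the 10000 strongest peaks of each list they were 4 and 0, beside 3.22% and 1.94%, and no peak of 5 or more was at any of them in either list, beside 1.27% and 0.38%.

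Some of the 10 are regulators of epithelial identity. ESRP1 and ESRP2, the epithelial splicing regulators, each had a replicate 1 peak with a fold of 2.30, and the summits were 70 and 138 bp from an end of the gene. ELF3, an epithelial ETS factor gene, had a fold of 2.52 with a summit 128 bp downstream of its start. The ELF3 peak covers the single CACCTG shown above. AP1M2, the clathrin adaptor subunit of epithelial cells, had a fold of 2.52 with a summit 165 bp upstream of its start, and all 3 of its CACCTG copies are inside the peak. Replicate 2 had no peak at the ends of these 4 genes, though ESRP1 and ELF3 each had one inside the gene.

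Others are adhesion and surface genes. EPCAM, an epithelial adhesion molecule, had a replicate 1 fold of 2.41 and a summit 299 bp inside 1 end. CDH3 (P-cadherin) had 2.52, JUP (plakoglobin) had 2.74, SPINT2 (a protease inhibitor) had 2.63 and ERBB3 (a receptor kinase of the EGFR family) had 3.07. PATJ, a polarity scaffold gene, had 3 replicate 1 peaks at its ends. The one upstream of its start had a fold of 2.63 and lies beside 2 CACCTG copies, with neither copy inside it. RAB25, a GTPase of epithelial traffic, had replicate 1 folds up to 3.07, with that peak at its far end. Its replicate 2 peak, with a fold of 2.42, had a summit 137 bp upstream of the start and covers the CACCTG shown above. So RAB25 had a peak in both replicates without a reproducible region.

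CDH1 had no peak in either list. The nearest were 47304 bp away in replicate 1 and 24426 bp away in replicate 2. In all, 25 of the 39 genes had no peak at an end, among them OCLN, the claudin genes CLDN3, CLDN4 and CLDN7, GRHL2, OVOL1, CRB3 and the keratin genes KRT8, KRT18 and KRT19. In each replicate 3 of the 25 had a peak inside the gene, OVOL1 among them in replicate 1. The lists begin at folds of 2.08 and 2.16, so lower binding would not appear in them.

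Epithelial genes exceeded the share of all genes in replicate 1 both in and outside dense bins, and INTS13, INTS11 and HDGF were also at many of them. In dense bins 9 of 15 had a replicate 1 peak (60%, beside 34.1% of all genes there) and 4 of 15 a replicate 2 peak (26.7%, beside 22.4%). Outside dense bins 5 of 24 epithelial genes had a replicate 1 peak (EPCAM, ESRP1, ESRP2, CDH3 and JUP; 20.8% beside 3.52% of all genes there), and 0 of 24 had a replicate 2 peak, beside 1.95%. INTS13 had a peak at 38 and 36 of the 39 genes (background 79.5% and 68.1%), INTS11 at 23 and 11 (50% and 22.2%) and HDGF at 22 and 17 (38.5% and 34.6%). ZNF609 had a peak at 0 of 39 in both lists, beside 7.0% and 3.43%. Of the 24 genes outside dense bins, INTS13 was at 23 and 21 (background 71.4% and 55.2%), INTS11 at 10 and 3 (33.5% and 8.35%), HDGF at 11 and 6 (23.6% and 20.2%) and ZNF609 at 0 and 0 (1.38% and 0.39%). No test was made of these counts, because the genes were chosen with results known and the replicates are 2. In 17 genes of the list with a start-site window, 15 of 22 windows held CACCTG, beside 20.6% of all windows. The windows overlapped by a ZEB1 peak were 3 of replicate 1 (AP1M2, ELF3 and PATJ) and 1 of replicate 2 (RAB25) among these 22, beside 3.71% and 2.29% of all windows, and all 4 held it.

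**Figure D5:**
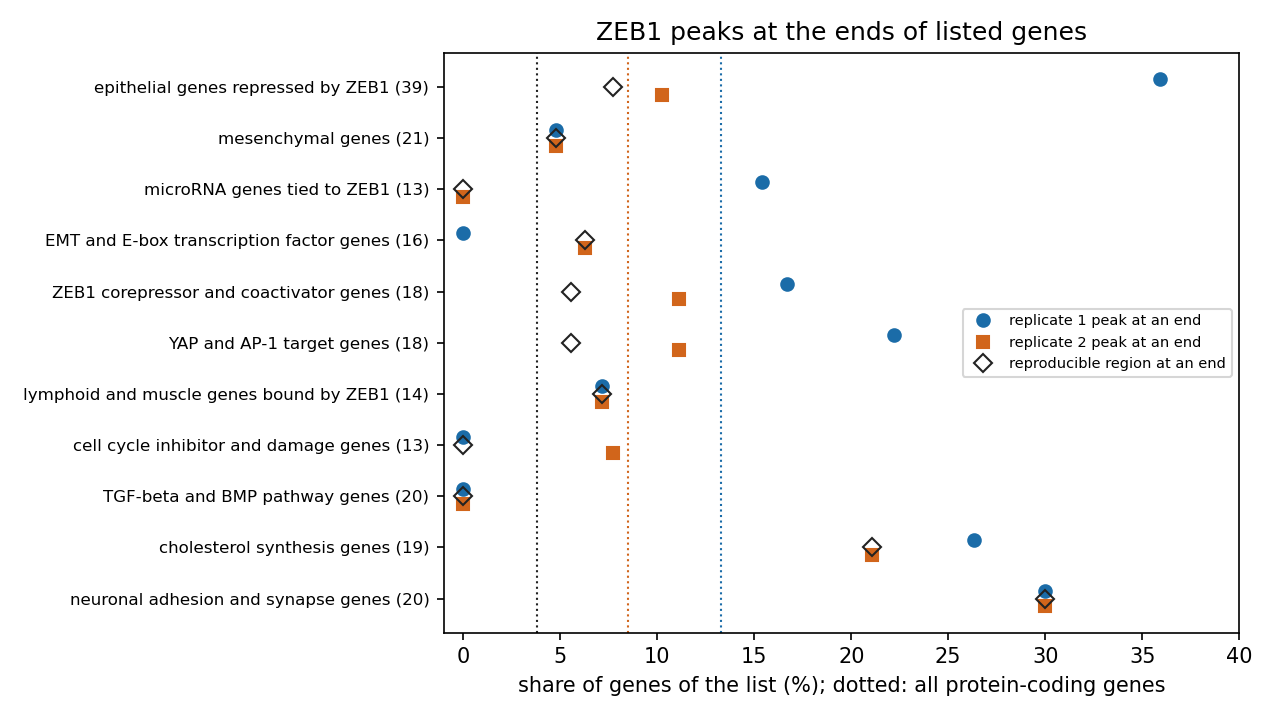
Share of genes (%) of 11 lists with a ZEB1 replicate 1 peak (blue circles), replicate 2 peak (orange squares) or reproducible region (diamonds) at an end, with the number of genes in parentheses and dotted lines at the shares of all protein-coding genes. Epithelial genes are at 35.9% in replicate 1 and 10.3% in replicate 2, while the neuronal list is at 30% in all 3. List members were chosen with earlier results of these data known.

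At the microRNA genes tied to ZEB1, 1 replicate 1 peak, chr1:1167285-1167944, began 86 bp from MIR200B and overlapped MIR200A. It had a fold of 2.52 and a −log10 q of 2.23, and its summit was 151 bp beyond MIR200B. These are the genes of the pair of microRNAs printed above. Counted as 2 of 13 genes, this compares with 8.01% of all microRNA genes. Replicate 2 had a peak at 0 of 13, beside 4.45%, and a reproducible region was at 0 of them, beside 2.51%. MIR141 and MIR200C, the second cluster of the family, MIR205 and MIR34A had none in either list.

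In the mesenchymal list and the list of transcription factors of the transition, 1 gene each had a region at an end. Of 21 mesenchymal genes (4.76%, beside 3.78% of all protein-coding genes), S100A4, a calcium-binding protein gene, had a region, with folds of 2.85 and 2.67 at its ends. VIM and CDH2 had no peak at an end. Of 16 transcription factor genes (6.25%), SNAI3 alone had a region touching an end, with a replicate 2 peak of fold 2.29 there and no replicate 1 peak within the window. ZEB1 itself had no peak at either end: replicate 1 had a peak inside the gene and the nearest replicate 2 peak was 4346982 bp away. Of 18 cofactor genes, HDAC1 (3.07 and 2.93), a histone deacetylase gene, and RBBP4 (3.61 and 2.93), a histone-binding subunit, had peaks of both replicates, HDAC1 with a region, and CTBP2, a CtBP corepressor gene, had a replicate 1 peak of 2.63. The cofactor counts were 3 of 18 for replicate 1 and 2 of 18 for replicate 2 (16.7% and 11.1%, beside 13.3% and 8.48% of all protein-coding genes). The 20 TGF-beta and BMP pathway genes had 0 peaks at an end in either list. Of these 20, 17 lie outside dense bins, where 3.52% and 1.95% of all protein-coding genes had a replicate 1 and replicate 2 peak. The 3 others lie in dense bins, where the shares were 34.1% and 22.4%.

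YAP and AP-1 target genes, a class that ZEB1 can activate together with YAP, had replicate 1 peaks at 4 of 18 and replicate 2 peaks at 2 of 18 (22.2% and 11.1%, beside 13.3% and 8.48% of all protein-coding genes). JUN had a region with folds of 2.96 and 2.80. JUNB had peaks of both replicates, 2.52 and 2.29, that did not overlap. AJUBA, a LIM protein of the Hippo pathway, had the highest replicate 1 fold of the list, 3.51 with a −log10 q of 6.22, and no replicate 2 peak. AMOTL2, an angiomotin gene, had 2.41 in replicate 1, and its replicate 2 peak was inside the gene and not at an end. AJUBA, AMOTL2 and JUNB lie outside dense bins.

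The neuronal adhesion and cholesterol synthesis lists had the largest shares of genes with a region at an end among the 11 lists, 30% and 21.1%. List members were chosen with earlier results of these data known, so this order partly reflects that choice and is only a description. In the neuronal adhesion list 6 of 20 genes (30%, beside 3.78% of all genes with a region) had a replicate 1 peak, a replicate 2 peak and a region at an end: PCDH9, SLITRK1, SLITRK5, SLITRK6, GPC5 and GPC6. All 6 lie on chromosome 13 in dense bins. Of all protein-coding genes in dense bins, 11.6% had a region at an end, 34.1% a replicate 1 peak and 22.4% a replicate 2 peak. Of the 14 genes of the list outside dense bins, 0 had a peak at an end, beside 3.52% and 1.95% of all genes there. PCDH9 had peaks of 4.60 and 4.58 at its upper end, and GPC6 had 2.96 and 3.57. In the cholesterol synthesis list 4 of 19 genes (21.1%) had regions, among them PMVK (2.74 and 2.67), FDPS (2.41 and 3.44) and LSS (2.19 and 2.93). At its ends TM7SF2 had replicate 1 peaks only, and the one upstream of its start, with a fold of 2.30 and a summit 275 bp from it, covers the CAGGTG shown above. All 5 are in dense bins, which hold 7 genes of the cholesterol synthesis list, so the dense-bin shares given above are the closer comparison. Of the 14 genes of the lymphoid and muscle list 1, MYOG, had a region (7.14%, beside 3.78% of all genes), with folds of 2.19 and 2.80.

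Most ZEB1 peaks were found in 1 replicate only, 35241 (67.3%) in replicate 1 and 27638 (61.0%) in replicate 2. They were narrower, with median widths of 469 and 456 bp beside 784 and 736 bp for shared peaks. Their highest folds were 4.27 and 4.71. A −log10 q of 5 or more was reached by 807 (2.29%) in replicate 1 and 250 (0.905%) in replicate 2. The median distance to a peak of the other list was 3543 bp for replicate 1 and 2726 bp for replicate 2. Of these peaks 24.7% and 28.8% lay within 1 kb, and 6.93% and 5.81% beyond 100 kb. The median gap between neighbouring peaks of the same list was 3070 bp in replicate 1 and 3226 bp in replicate 2, so such distances are of the order of ordinary peak spacing. Dense bins held 82.7% and 80.6% of them, beside 98.1% and 98.0% of the shared peaks. At gene ends the summit shares were 8.27% for replicate 1 only and 5.86% for replicate 2 only, beside 6.34% and 6.16% for the shared peaks of each list.

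The strongest peaks of 1 replicate had neighbours in the other list too, in dense bins where peaks are crowded. The 10 strongest of replicate 1 had folds of 3.94 to 4.27 and lay 16 to 3481 bp from a replicate 2 peak, and 7 were on chromosome 1. Their nearest genes included TPTEP2-CSNK1E, MIGA1, TTC28, TARBP1, KIAA1328, FGGY, IBA57, RAB4A and BECN2. The 10 strongest of replicate 2 had folds of 3.95 to 4.71 and lay 16 to 4071 bp from a replicate 1 peak. Their nearest genes were MZT1, DTNA, DACH1, LOC124900338, CNIH4, MAP3K21, RGS7, ASXL3, BSDC1 and, for 1 peak, PTP4A2 with LOC128031832. All 20 were in dense bins, and each overlapped peaks of at least 3 of the 8 other lists.

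Reproducible ZEB1 regions nearly all coincided with peaks of the other proteins. Only 85 of 14984 (0.567%) overlapped no peak of the other 8 lists, and 23.9% overlapped peaks of all 8. Peaks of 1 replicate were free of other proteins more often, at 7.90% in replicate 1 and 12.9% in replicate 2. These shares grow with width and with the length of the other lists, and regions were wider, so the sets cannot be ranked by them.

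Outside dense bins the 304 regions had a median width of 875.5 bp and median folds of 2.63 and 2.67, and 123 overlapped a protein-coding gene. Shared peaks were 5.02% of the replicate 1 peaks and 6.07% of the replicate 2 peaks there, where peaks are sparser and meet less often by placement. The strongest of these regions, chr13:61962984-61991351, had folds of 7.78 and 8.15 and lay beside the 217-kb region given above, which came next. Regions around TLE4 followed, with several at GPRIN2 among the next. STX4, a syntaxin gene of membrane fusion, had a region with folds of 3.29 and 3.31, and the highest summits were 54 bp apart. Relative to the STX4 start the summits were 13 bp and 67 bp downstream, and both peaks cover the CACCTG shown above. The region at the start of GPRIN2, a gene of neurite outgrowth, had folds of 3.51 and 3.69. Its summits lay 537 and 124 bp upstream, and both peaks cover the CAGGTG printed for it. STX4 overlapped peaks of 7 of the 8 other lists and GPRIN2 of all 8.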

How the data were processed

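The files are lists of peaks, 1 per library. Per the submitters' processing notes, FastQC, Trimmomatic, Bowtie, Picard and MACS2 were used; the sources used here do not give versions, thresholds, the control or the build. GRCh38 was inferred from the names of alternate contigs in the files. Running numbers of the peaks skip 556 values in replicate 1 and 416 in replicate 2, for a reason the sources do not state. The deposited score is the whole part of 10 times the −log10 q; the authors' fold is a linear ratio of summit to background, and the deposited p and q are on a −log10 scale. Coordinates are counted from 1.

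Regions, distances and windows were computed with Python 3.11.15, numpy 2.4.6, pandas 2.3.3 and scipy 1.17.1, checked on simulated intervals. Genes came from RefSeq for GRCh38 (19974 protein-coding), start sites from 34961 RefSeq windows of 300 bases. Genes named are the 25 strongest at ends, all members of 11 lists with a peak at an end, the 10 with most regions inside, the 10 widest regions, the 10 strongest peaks of each replicate alone, the 5 chromosomes and 10 bins with most regions, and ZEB1 and CDH1. Members and lists were chosen with earlier results of these data known. Groups came from the sample titles. No test was made between groups: ZEB1 has 2 libraries, and lists are given by counts beside the share of all genes. Some genes that meet the naming rule are not reported here.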

Additional observations from a re-analysis of the deposited data

Results flagged for a closer look

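Outside chromosomes 1 to 22 and X, replicate 1 had 15 peaks on 8 alternate contigs of the assembly and replicate 2 had 8 peaks on 5 contigs. They are listed because they lie outside the measurements described above. Their folds ran from 2.08 to 4.49 and from 2.42 to 3.31. Whether reads there belong to the contig or to the matching stretch of a chromosome was not tested.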

How the results depend on the processing

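The number of reproducible regions depended on the overlap rule and on weak peaks. The share of peaks they hold fell with a stricter overlap rule but stayed close without weak peaks, except in replicate 2 at the strictest limit. With only peaks of a −log10 q of 5 or more there were 799 regions, holding 33.8% of replicate 1 and 59.0% of replicate 2 peaks, with a median width of 5453 bp, 17.8% at gene ends, 30.2% inside genes, 97.2% in dense bins, 45 genes with a region at an end and 0 epithelial genes. The top 10000 peaks of each list gave 2870 regions with 35.7% and 39.3% of the peaks, 2435 bp, 14.8%, 40.6%, 98.6%, 189 genes and 0 epithelial genes. A reciprocal overlap of 50% gave 5723 regions with 10.9% and 12.6% of the peaks, 982 bp, 47.9% inside genes, 97.7% in dense bins, 373 genes and 1 epithelial gene. Outside dense bins there were 304 regions with 5.02% and 6.07% of peaks, 875.5 bp, 45.7% inside genes, 20 genes and 0 epithelial genes. Here the bin is that of the region, whereas the 19 genes given above were placed by the bin of the gene. Summits within 250 bp, chosen after seeing the data, left 5767 regions and 370 genes. A window of 500 bp put 8.37% of regions at gene ends and 1 of 5 kb put 25.4%, with 1179 genes. Dense bins above a ratio of 3 held 94.1% of regions. Leaving out either replicate turns regions into the peaks of the other list: 45291 to 52336 of them, median widths of 524 to 529 bp, 7.94% to 9.99% at gene ends, 53.8% to 53.9% inside genes, 87.4% to 87.7% in dense bins, 1694 to 2656 genes and 4 to 14 epithelial genes, the higher count from replicate 1. The cause was not tested beyond what each rule removes by construction.

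No paired analysis was possible because no groups were compared by a test. Library depth is unknown, and most peaks stood few steps of fold above the lowest accepted summit, so a gene without a listed peak is not shown to lack ZEB1.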
